A study of Mus musculus with 6 samples.

Results

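The genes of glycerolipid synthesis described here were 10 genes taken as its steps, Gpat3, Gpat4, Gpam, Agpat1, Agpat2, Agpat3, Agpat4, Lpin1, Dgat1 and Dgat2, out of 25700 genes in the deposited count table. All 10 were found by symbol, and all 10 passed the filter on low counts that 19264 genes passed. Gpat3 was picked because its RNA was lower in the mutant mice, so its difference is a description and no support is drawn from any count of calls that includes it, and the other 9 were added as the remaining steps of the pathway. Of the 10, 9 encode acyltransferases and 1, Lpin1, encodes a phosphatase.

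RNA was sequenced from the proximal end of the incisor, the growing end, in 3 Gli1-CreERT2;Runx2fl/fl mice (called cKO) and 3 Runx2fl/fl mice (called control), all C57BL/6 and 5 weeks old. Both groups carried floxed Runx2 alleles, and the labels give both the same treatment, tamoxifen at 1.5 mg per 10 g body weight on each of 3 days at 1 month of age, with collection 1 week after induction. Cre is driven by Gli1, a hedgehog pathway gene active in the mesenchymal stem cells of the incisor. Targeting therefore depends on Gli1 being active in a cell, or in the cell it descends from, at the time of tamoxifen. The control mice carried no Cre, and Runx2 loss and the Gli1-CreERT2 allele itself therefore cannot be told apart as sources of a difference.

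The deposited estimated counts summed to between 62415177 and 66366749 in cKO libraries and between 53525185 and 66694240 in control libraries. Levels are given as CPM (counts scaled to a common library size, with TMM factors). Runx2, the targeted gene, measured 62.6, 54.0 and 49.0 CPM in cKO mice, against 79.7, 77.7 and 81.2 CPM in control mice, and the groups did not overlap. Gli1, the gene of the Cre allele, measured 75.0, 77.9 and 70.6 CPM in cKO mice. It measured 158.7, 89.7 and 206.9 CPM in control mice, again without overlap, and the cause was not tested. The tissue label, dental mesenchyme, matched the mesenchyme genes but did not cover all of the sample. The 8 mesenchyme and pulp markers together measured 27063 to 43740 CPM in cKO mice and 14708 to 23436 CPM in control mice. Most of this sum was the collagen gene Col1a1, with means of 24214 CPM in cKO mice and 11419 CPM in control mice. Enamel-secreting ameloblasts are an epithelial cell type. Their 4 marker genes together measured 22163 to 46682 CPM in cKO mice and 60042 to 79541 CPM in control mice. Control 1 differed from the 5 other mice in sex, with Xist at 0.598 CPM against 2865 to 3390 CPM in the others, and in skeletal muscle markers, whose sum was 409 CPM against at most 16.5 CPM in any other library.

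Cells build triacylglycerol and most phospholipids on a glycerol backbone. Glycerol 3-phosphate acyltransferases (GPATs) attach the first fatty acid, acylglycerol-phosphate acyltransferases (AGPATs) attach the next and give phosphatidate, lipins remove its phosphate to give diacylglycerol, and diacylglycerol acyltransferases (DGATs) add the last fatty acid to make triacylglycerol. Phosphatidate and diacylglycerol are also the branch points to membrane phospholipids, and the pathway is best known in adipose tissue and liver.

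Of the 10 genes, Gpat3 and Dgat2 were lower in all cKO mice than in any control mouse, Lpin1 was higher in all cKO mice, and the other 7 overlapped between the groups. Gpat3 stood at 0.496 times and Dgat2 at 0.638 times the control level, while Lpin1 stood at 1.23 times. Gpat3 belongs to the first acylation, Dgat2 to the last and Lpin1 to the phosphatase step, and no pattern over the steps is read from these 3 genes. Among all 19264 genes tested, 12.0% were lower in all cKO mice than in any control mouse and 11.1% were higher. None of the 10 was past an adjusted p of 0.05 with edgeR's quasi-likelihood test, where 0.0260% of all genes tested were, and 3 had an unadjusted p under 0.05, where 17.3% of all genes tested had. DESeq2 called 2 of the 10, Gpat3 and Dgat2, where it called 7.48% of the 17741 genes for which it gave an adjusted p. Because Gpat3 was chosen on this same contrast, nothing is read from these counts. Over the 10 genes the median log2 fold change (cKO over control) was 0.0062, against 4.8e-05 over all genes tested.

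**Figure D1:**
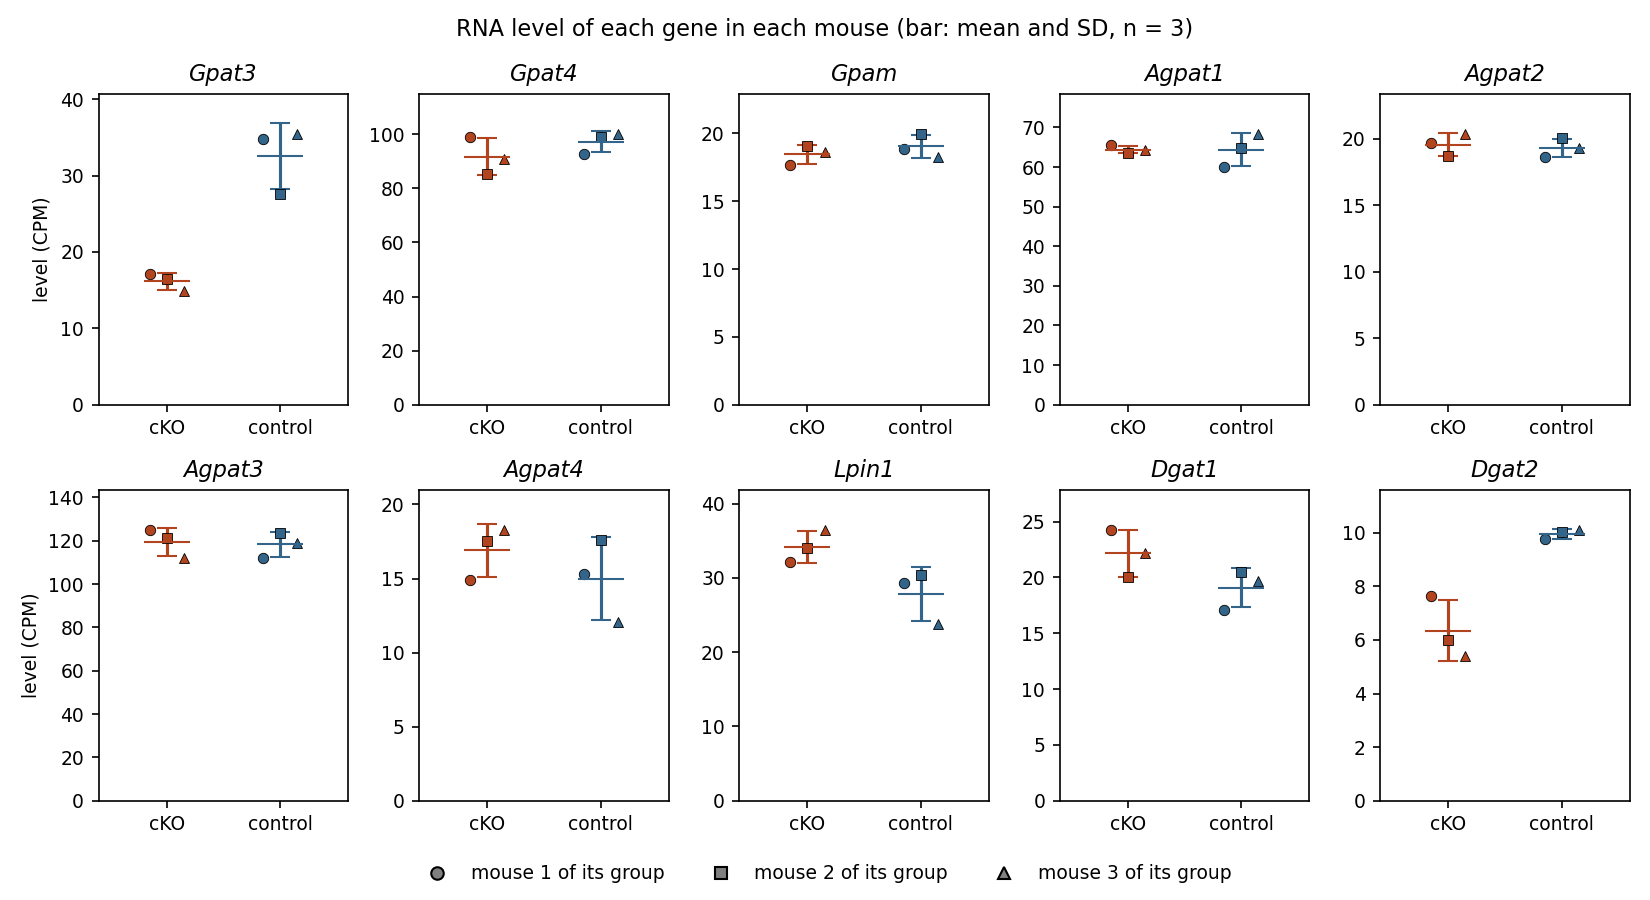
Level in CPM (vertical axes, from 0) of each of the 10 genes in each of 3 cKO mice (left in each panel) and 3 control mice (right), with the group mean and SD as bars. Gpat3 lies between 14.9 and 17.1 CPM in cKO mice and between 27.6 and 35.4 CPM in control mice, Dgat2 and Lpin1 also separate the groups, and the other 7 panels overlap.

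The first acylation is carried by 3 of the genes. Gpat3 (chromosome 5, 100845713 to 100899102, plus strand, build mm10) encodes a GPAT of the endoplasmic reticulum known for its part in fat storage in adipocytes. Gpat3 measured 17.1, 16.5 and 14.9 CPM in the cKO mice, against 34.8, 27.6 and 35.4 CPM in the control mice. The cKO values lay close together, and control 2 was the lowest of the control mice without reaching the cKO range. The means were 16.2 ± 1.14 CPM in cKO mice and 32.6 ± 4.36 CPM in control mice (SD, n = 3 each), a log2 fold change of -1.01 (SE 0.11). The SD was 7.07% of the mean in cKO mice and 13.4% in control mice, where counting error alone at the lowest count of any library, 931, is 3.28%.

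Gpat4 (chromosome 8, 23171265 to 23208346), the close relative of Gpat3 that also acts in the endoplasmic reticulum and at lipid droplets, had the highest level per length of the 3. It measured 98.9, 85.4 and 90.7 CPM in cKO mice, against 92.8, 98.9 and 100.1 CPM in control mice, with overlapping groups and a log2 fold change of -0.086 (SE 0.068). Gpam (chromosome 19, 55069734 to 55099451), the GPAT of the mitochondrial outer membrane, measured 17.7, 19.1 and 18.6 CPM in cKO mice, against 18.9, 19.9 and 18.3 CPM in control mice. Its groups overlapped as well, and its log2 fold change was -0.044 (SE 0.066). Neither of the other GPAT genes had a higher mean in cKO mice than in control mice.

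Because levels of different genes can be compared only per length, CPM was divided by the kilobases of exon of each gene. Gpat3 made up 21.9%, 23.1% and 20.6% of the summed per-length level of the 3 GPAT genes in the cKO mice, against 37.3%, 30.7% and 36.3% in the control mice. The sum itself was 22.4, 20.3 and 20.6 CPM per kb in cKO mice, against 26.6, 25.7 and 27.8 CPM per kb in control mice. The groups did not overlap in either quantity, both of which contain the level of Gpat3. The share of Gpat4 was 65.0% ± 1.87 in cKO mice and 54.5% ± 2.84 in control mice (SD, n = 3 each), and that of Gpam was 13.2% ± 1.14 in cKO mice and 10.7% ± 0.905 in control mice, while the levels of these genes overlapped.

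Reads of Gpat3 can be confused with those of overlapping genes. In GENCODE M21, 30.0% of its exonic bases lie opposite exons of 4930458D05Rik, an antisense transcript, and 7.40% are shared with Gm42987 on the same strand. Whether counting used strand is not given in the sources used here. Both were low. 4930458D05Rik held 66.4, 68.6 and 97.3 estimated counts in cKO libraries, against 107, 117 and 103 in control libraries, and Gm42987 held at most 18.1 in any library, where Gpat3 held 931 to 2098. In CPM both were lower in all cKO mice than in any control mouse, at 0.664 and 0.490 times the control level. These counts come from the same assignment of reads, so they cannot show whether shared reads were moved between the genes.

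RefSeq promoter windows (build GRCm38.p6, the same assembly as mm10) were at hand for 7 of the 10 genes, without Gpat4, Dgat1 and Dgat2, and 2 of the 7 had a pair of starts. Since Runx2 was the deleted factor, the 250 bases before each RefSeq start were searched on both strands for the RUNX core, TGTGGT or TGCGGT. The windows of Gpat3, Agpat1, Agpat3 and Agpat4 lie inside the spans given here for these genes, that of Gpat3 beginning at 100845713. Sequence before the outer starts of these genes was therefore not searched. None of the 9 windows held the first form, which 14.0% of the 32851 windows of this length in the table held. The other form was in 1 window, that of Agpat2, and 5.10% of all windows held it. The part of the Gpat3 window free of its own exons (chr5:100845979-100846129, plus strand) is shown because Gpat3 had the largest difference, and the Agpat2 window (chr2:26604418-26604667, minus strand) because it held the match. Capitals mark TGCGGT and, for orientation in a GC-rich promoter, the GC box GGGCGG, which 32.7% of all windows held; an overlapping pair of GC boxes prints as 1 run. The whole Gpat3 window held 3 GC boxes, none of them whole within the printed part; its 99 exonic bases are not printed. Matches and their absence describe these letters only.
Gpat3: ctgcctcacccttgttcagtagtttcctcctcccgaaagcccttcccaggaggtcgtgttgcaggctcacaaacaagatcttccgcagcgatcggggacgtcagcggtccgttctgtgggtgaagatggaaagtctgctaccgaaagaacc
Agpat2: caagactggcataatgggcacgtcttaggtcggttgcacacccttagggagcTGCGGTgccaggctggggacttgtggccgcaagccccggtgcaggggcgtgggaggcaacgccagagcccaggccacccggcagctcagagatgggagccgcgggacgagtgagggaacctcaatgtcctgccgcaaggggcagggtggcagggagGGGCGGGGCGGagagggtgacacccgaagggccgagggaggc

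The next acylation, from lysophosphatidate to phosphatidate, is represented by 4 genes, and none separated the groups. Agpat1 (chromosome 17, 34604262 to 34613449), a broadly expressed enzyme of the endoplasmic reticulum, measured 65.4, 63.6 and 64.2 CPM in cKO mice, against 60.1, 64.8 and 68.3 CPM in control mice (log2 fold change 0.00011, SE 0.059). Agpat2 (chromosome 2, 26593057 to 26604417), whose loss in humans causes a congenital lack of body fat, measured 19.7, 18.7 and 20.4 CPM in cKO mice, against 18.7, 20.0 and 19.3 CPM in control mice (log2 fold change 0.018, SE 0.065). The control values of Agpat1 lay around its cKO values. Those of Agpat2 lay within the cKO range except control 1, at 18.65 CPM against 18.69 CPM in the lowest cKO mouse.

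Agpat3 (chromosome 10, 78269178 to 78352489), an enzyme of the endoplasmic reticulum and Golgi, measured 125, 121 and 112 CPM in cKO mice, against 112, 124 and 119 CPM in control mice (log2 fold change 0.012, SE 0.063). Agpat4 (chromosome 17, 12118704 to 12219645), known mainly from brain, measured 14.9, 17.6 and 18.3 CPM in cKO mice, against 15.3, 17.6 and 12.1 CPM in control mice (log2 fold change 0.17, SE 0.15). The SD of Agpat4 was 10.5% of the mean in cKO mice and 18.6% in control mice, the widest spread of the 10 genes among control mice, with control 3 the low one. Summed over the 4 genes, the per-length level was 52.2 ± 0.310 CPM per kb in cKO mice and 51.3 ± 2.30 CPM per kb in control mice (SD, n = 3 each), with overlapping groups. Agpat1 shares 3.37% of its exonic bases with Egfl8 and Agpat2 3.00% with Egfl7, both on the opposite strand, and Agpat3 shares 0.205% with Gm40709.

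Lpin1 (chromosome 12, 16535669 to 16610966) encodes a phosphatidate phosphatase that also acts as a coactivator of transcription in the nucleus, and its loss in mice causes fatty liver and little body fat. It measured 32.1, 34.0 and 36.4 CPM in cKO mice, against 29.4, 30.4 and 23.7 CPM in control mice. The lowest cKO mouse lay only slightly above the highest control mouse, and control 3 was well below the rest. The means were 34.2 ± 2.16 CPM in cKO mice and 27.8 ± 3.59 CPM in control mice (SD, n = 3 each), a log2 fold change of 0.30 (SE 0.10). The log2 fold change was 0.19 when control 3 was left out, and 0.19 when the level of 3 genes of late ameloblasts (Klk4, Amtn and Odam, called late enamel markers) entered the fit as a covariate.

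The final acylation is served by 2 unrelated enzymes. Dgat2 (chromosome 7, 99153658 to 99182719), an enzyme of the endoplasmic reticulum and lipid droplets that works mainly on newly made fatty acids, measured 7.63, 6.02 and 5.41 CPM in cKO mice, against 9.76, 10.0 and 10.1 CPM in control mice. The control values were nearly identical and the cKO values spread below them. The means were 6.35 ± 1.14 CPM in cKO mice and 9.96 ± 0.182 CPM in control mice (SD, n = 3 each), a log2 fold change of -0.65 (SE 0.14). Dgat2 held 338 to 667 counts per library, the fewest of the 10 genes, where counting error is at most 5.44%. Its SD was 18.0% of the mean in cKO mice and 1.83% in control mice.

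Dgat1 (chromosome 15, 76502015 to 76511953), the DGAT of the endoplasmic reticulum that re-esterifies fatty acids taken up by the cell, measured 24.2, 20.0 and 22.2 CPM in cKO mice, against 17.1, 20.5 and 19.7 CPM in control mice (log2 fold change 0.21, SE 0.10). Its groups overlapped through cKO 2. Per length, Dgat2 made up 23.8%, 23.0% and 19.5% of the 2 DGAT genes in the cKO mice, against 36.1%, 32.7% and 33.7% in the control mice, and these shares did not overlap. The summed per-length level of the step overlapped between the groups, at 9.31 ± 0.986 CPM per kb in cKO mice and 9.48 ± 0.632 CPM per kb in control mice (SD, n = 3 each).

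**Figure D2:**
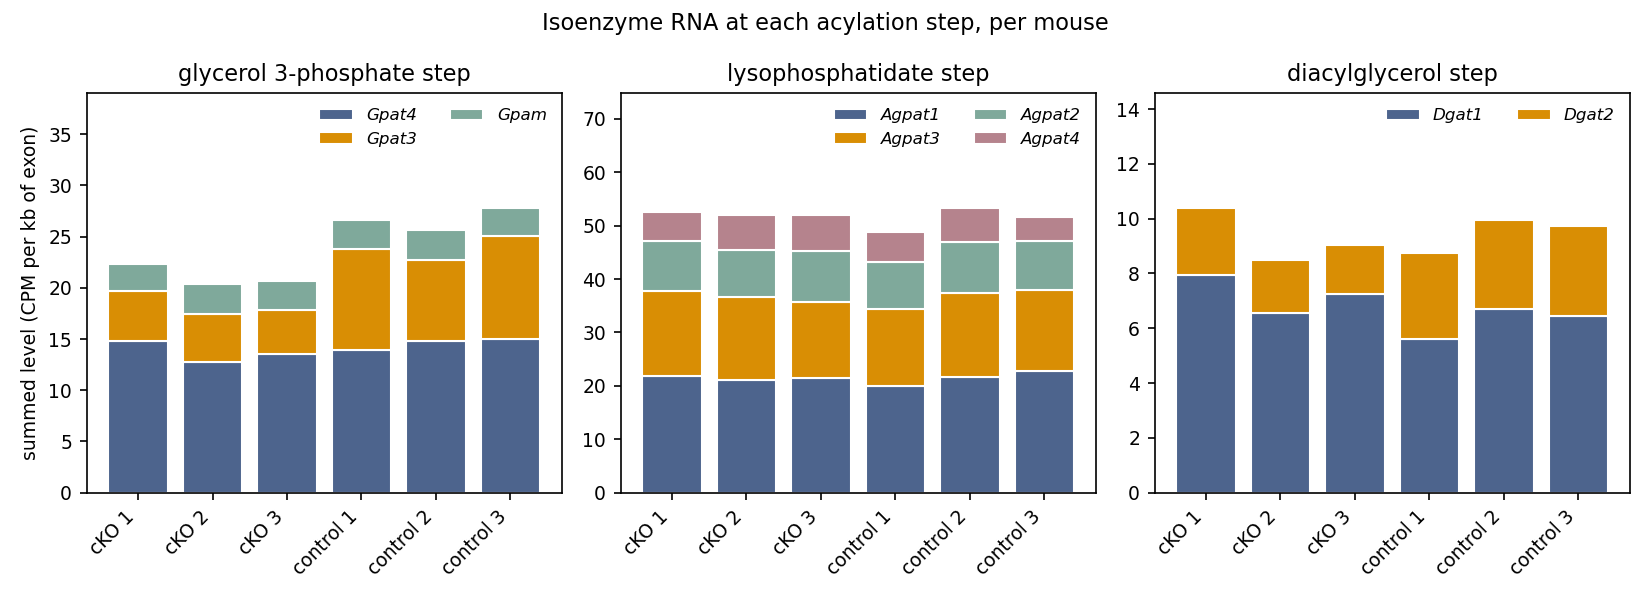
Per-length level (vertical axis, CPM per kb of exon) summed over the isoenzymes of each acylation step, 1 bar per mouse, with cKO mice left of control mice and each gene a colour. The Gpat3 and Dgat2 segments are smaller in all 3 cKO bars than in any control bar, the whole bar of the glycerol 3-phosphate step is lower in cKO mice, and the bars of the other steps overlap.

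Ordered by mean level per length, the genes in cKO mice ran from Agpat1 at 21.5 CPM per kb through Agpat3 (15.3), Gpat4 (13.7), Agpat2 (9.19), Dgat1 (7.25), Agpat4 (6.26), Gpat3 (4.62), Lpin1 (3.54) and Gpam (2.77) to Dgat2 (2.06). In control mice the order was Agpat1 (21.5), Agpat3 (15.2), Gpat4 (14.6), Gpat3 (9.31), Agpat2 (9.07), Dgat1 (6.25), Agpat4 (5.55), Dgat2 (3.23), Lpin1 (2.88) and Gpam (2.86). Neighbours whose values over 3 mice overlapped were Agpat3 with Gpat4 and Dgat1 with Agpat4 in both groups, and in control mice also Gpat3 with Agpat2 and Lpin1 with Gpam. Gpat3 thus held place 7 of 10 in cKO mice and place 4 in control mice, or places 8 and 5 when the longest transcript was used as the length. The exon lengths are those of GENCODE M21, in which Gpam spans a wider stretch (55067268 to 55127238) than in the deposited table. Its length may therefore differ from the one counted. Gpam held place 9 in cKO mice and place 10 in control mice with either of the lengths used here.

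**Figure D3:**
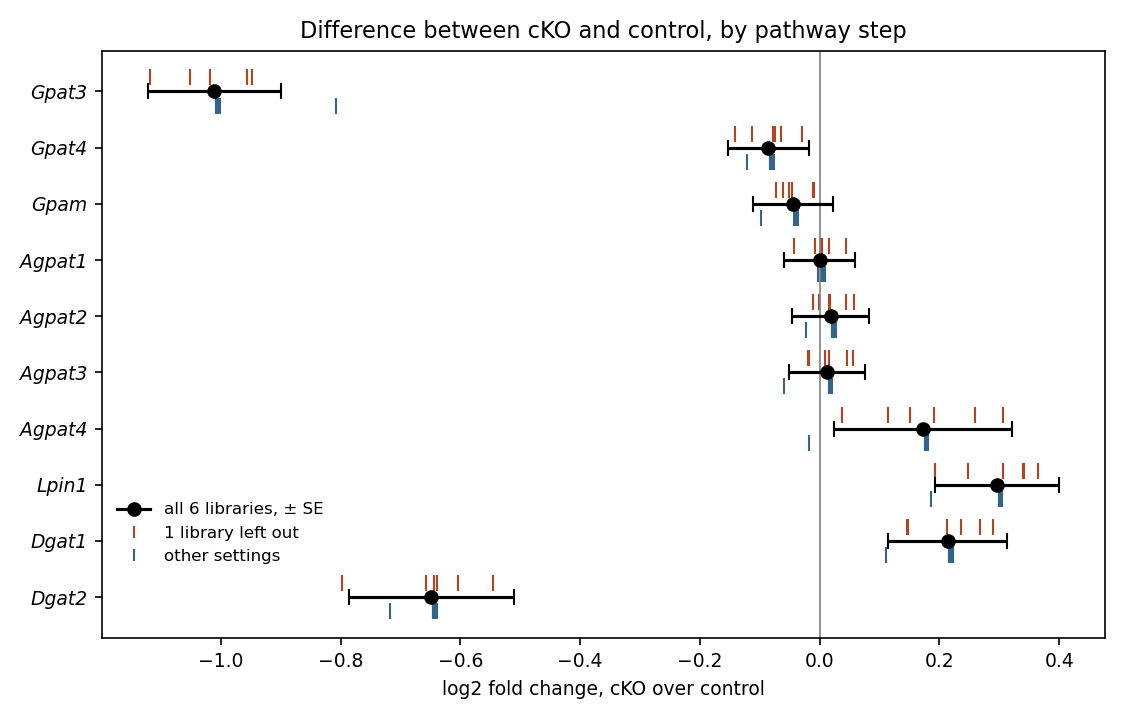
Log2 fold change of each gene, cKO over control (horizontal axis), with its SE (black), the values with 1 library left out (upper ticks) and under the other settings (lower ticks). Gpat3 at -1.01 and Dgat2 at -0.65 stay left of 0 under all 12 alternatives, while Agpat1, Agpat2 and Agpat3 lie on 0.

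Gpat3 ranged from -1.12 (without control 2) to -0.81 (late enamel markers in the fit) over the 12 alternatives, and Dgat2 from -0.80 (without cKO 1) to -0.55 (without cKO 3). The profile of Gpat3 over the 6 libraries was compared with those of 13585 tested genes with a mean of at least 1 CPM. Genes with a predicted-gene name (Gm followed by digits, or ending in Rik) were left out. The 5 genes most like Gpat3 were Col4a4, Lrrc15, Cd27, Cacna2d2 and Wnt11. The measure was the root mean square distance between log2 CPM profiles, each centred on its own mean, and ran from 0.078 for Col4a4, a basement membrane collagen chain, to 0.12 for Wnt11, a secreted Wnt ligand. Col4a4 measured 2.19, 2.29 and 1.92 CPM in cKO mice, against 4.39, 4.07 and 4.68 CPM in control mice. Of the 9 other glycerolipid genes Dgat2 was nearest, at a distance of 0.23 and place 116 of 13585, and the next, Gpat4, was at 0.48 and place 3673. This likeness rests on the same group difference by which Gpat3 was chosen.

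Cell types that could contribute RNA also differed between the groups, and in whole tissue fewer cells of a type cannot be told apart from less RNA per cell. Beside the lower Gpat3 and Dgat2 levels, all 4 secretory ameloblast markers were lower in each cKO mouse than in any control mouse, and their sums are given above. All 3 odontoblast markers were higher in each cKO mouse than in any control mouse. Their sums were 6309 to 12500 CPM in cKO mice and 2777 to 4890 CPM in control mice. Likewise higher without overlap were 6 of the 8 mesenchyme and pulp markers, 6 of the 7 macrophage markers and 4 of the 5 endothelial markers. Among all genes tested, 12.0% were lower and 11.1% were higher without overlap. All 7 macrophage markers were above 0 in log2 fold change, with sums of 575 to 721 CPM in cKO mice and 368 to 494 CPM in control mice. All 5 endothelial markers were above 0 too, with sums of 449 to 474 CPM in cKO mice and 374 to 400 CPM in control mice. The summed dental epithelium markers, mostly Krt5 and Krt14, overlapped, at 1876 to 3084 CPM in cKO mice and 2016 to 2694 CPM in control mice. Among the 6 genes of that list 4 were below 0 in log2 fold change, and Shh, a signal of the dental epithelium, did not overlap, at 211, 163 and 123 CPM in cKO mice, against 246, 274 and 352 CPM in control mice. Summed neutrophil and marrow markers overlapped through cKO 3, at 40.7, 18.8 and 2.13 CPM in cKO mice, against 1.28 to 2.53 CPM in control mice, and all 4 of the tested genes were above 0, with S100a9 higher in each cKO mouse than in any control mouse. Late enamel markers were at 1060 to 2473 CPM in cKO mice, against 105, 1721 and 93.0 CPM in control 1, 2 and 3, and control 2 was also the control mouse with the lowest Gpat3 level. The part of these cell types in the result was not tested.

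Among marker genes of fat cells, where Gpat3 and Dgat2 are best known, Adipoq and Plin1 were near 0, while Cebpa, Fabp4 and Pparg were not. Adipoq, the adipocyte hormone, was at most 0.0801 CPM in cKO mice and at most 0.135 CPM in control mice, and the lipid droplet coat gene Plin1 was at most 0.128 CPM in cKO mice and at most 0.0745 CPM in control mice. Mean levels in cKO mice were 10.8 CPM for Cebpa, 8.0 CPM for Fabp4 and 2.8 CPM for Pparg. In control mice they were 9.1, 7.5 and 2.7 CPM, and the groups overlapped for each of these genes. Of the 9 adipocyte markers listed, 5 were present in the deposited count table. Their sums were 19.8 to 23.3 CPM in cKO mice and 18.2 to 20.5 CPM in control mice, mostly from Cebpa and Fabp4. The groups overlapped in this sum.

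Of 94 listed genes in 11 lists around the pathway, 90 were tested and none passed an adjusted p of 0.05 with edgeR, 0 higher and 0 lower, where 0.0260% of all genes tested did. An unadjusted p under 0.05 was reached by 16 genes, 17.8% of those tested against 17.3% of all genes tested. DESeq2 called 5, Chkb, Lpcat2 and G0s2 as higher and Lclat1 and Lpin3 as lower, where it called 7.48% of all genes with an adjusted p, so this count is no more than the background. The median log2 fold change over the 90 genes was -0.018, and 10 of the 90 (11.1%) were lower and 7 (7.78%) higher in all cKO mice than in any control mouse, against 12.0% and 11.1% of all genes tested.

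A list of 5 other acyltransferases around the phosphatidate steps held Gpat2, Agpat5, Lclat1, Gnpat and Lpgat1. All 5 were below 0, with a median log2 fold change of -0.23, and none passed with edgeR. Gpat2 was at most 0.646 CPM in any library, and the groups overlapped for Gpat2 and Lpgat1. Lclat1, a lysophospholipid acyltransferase of the endoplasmic reticulum, had the lowest p of the lists. It measured 48.1, 47.7 and 42.6 CPM in cKO mice, against 63.1, 64.2 and 69.5 CPM in control mice, without overlap (log2 fold change -0.51, SE 0.069, edgeR adjusted p = 0.0614). Agpat5, a mitochondrial member of the AGPAT family, was lower in cKO mice without overlap (log2 fold change -0.23, edgeR adjusted p = 0.200). It measured 25.5 ± 0.995 CPM in cKO mice and 30.0 ± 2.56 CPM in control mice (SD, n = 3 each).

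Of the 5 other phosphatidate phosphatases 4 were below 0 (median -0.023) and none passed with edgeR. Lpin3, a relative of Lpin1, measured 7.22, 7.52 and 5.60 CPM in cKO mice, against 8.86, 9.35 and 10.6 CPM in control mice, without overlap and opposite in sign to Lpin1 (log2 fold change -0.50, edgeR adjusted p = 0.146). Plpp1, a lipid phosphatase of the plasma membrane, overlapped (log2 fold change -0.35, edgeR adjusted p = 0.381).

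Genes of substrate supply gave no call with edgeR or DESeq2. Of 14 genes of fatty acid synthesis and desaturation 10 were below 0, with a median log2 fold change of -0.052 and none past the threshold. Fasn, the fatty acid synthase, measured 150 ± 17.2 CPM in cKO mice and 146 ± 13.9 CPM in control mice (SD, n = 3 each). Elovl6, which elongates palmitate, measured 52.5, 47.9 and 43.2 CPM in cKO mice, against 54.4, 62.3 and 77.1 CPM in control mice (log2 fold change -0.43, edgeR adjusted p = 0.177), and Mlxipl, a sugar-sensing transcription factor, was at most 0.745 CPM. Of 9 acyl-CoA synthetases and fatty acid transporters 7 were above 0 (median 0.037), with Acsl3 and Acsl4 at 0.14 and 0.20. Of 4 genes of glycerol 3-phosphate supply 3 were below 0 (median -0.14), with Gpd1 at -0.78 and at most 1.30 CPM in any library, and Gpd1l at -0.12 (edgeR adjusted p = 0.295 and 0.445).

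Branches that use or reverse the pathway went both ways. Of 20 genes of the phospholipid branch 9 were above and 11 below 0 (median -0.015), and choline kinase beta, Chkb, measured 33.1, 32.7 and 36.2 CPM in cKO mice, against 26.5, 28.96 and 28.3 CPM in control mice (log2 fold change 0.29, edgeR adjusted p = 0.110). Pcyt1b, of the next step of phosphatidylcholine synthesis, had a log2 fold change of 0.40 (edgeR adjusted p = 0.247). Of 7 lysophospholipid acyltransferases 3 were above 0 (median -0.016), with Lpcat2 at 0.35 and Mboat1 at -0.40 (edgeR adjusted p = 0.162 and 0.200). Of 9 diacylglycerol kinases, which turn diacylglycerol back into phosphatidate, 7 were above 0 (median 0.090), with Dgka at 0.25 and Dgkh at -0.22 (edgeR adjusted p = 0.187 and 0.308).

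On the side of fat breakdown and storage, G0s2, an inhibitor of adipose triglyceride lipase, measured 59.4, 30.0 and 66.6 CPM in cKO mice, against 29.7, 23.3 and 24.4 CPM in control mice. The groups touched closely, with cKO 2 just above control 1 (log2 fold change 1.01, SE 0.28, edgeR adjusted p = 0.142). Pnpla2, which encodes the lipase that G0s2 inhibits, was also higher in cKO mice without overlap (log2 fold change 0.33, edgeR adjusted p = 0.183). Pnpla3, a lipid droplet protein, was at 0.418 ± 0.097 CPM in cKO mice and 0.765 ± 0.066 CPM in control mice (SD, n = 3 each; log2 fold change -0.86, edgeR adjusted p = 0.145). Of the 8 lipolysis genes 5 were above 0 (median 0.068), and of the 8 lipid droplet genes tested 4 were (median 0.056). Plin5 was at most 0.428 CPM in any library, and seipin, Bscl2, which shapes lipid droplets, had a log2 fold change of 0.25 (edgeR adjusted p = 0.235 and 0.252). Of the monoacylglycerol acyltransferases, the other route to diacylglycerol, only Mogat2 was tested, at most 0.256 CPM in any library with a log2 fold change of -0.18 (edgeR adjusted p = 0.910).

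**Figure D4:**
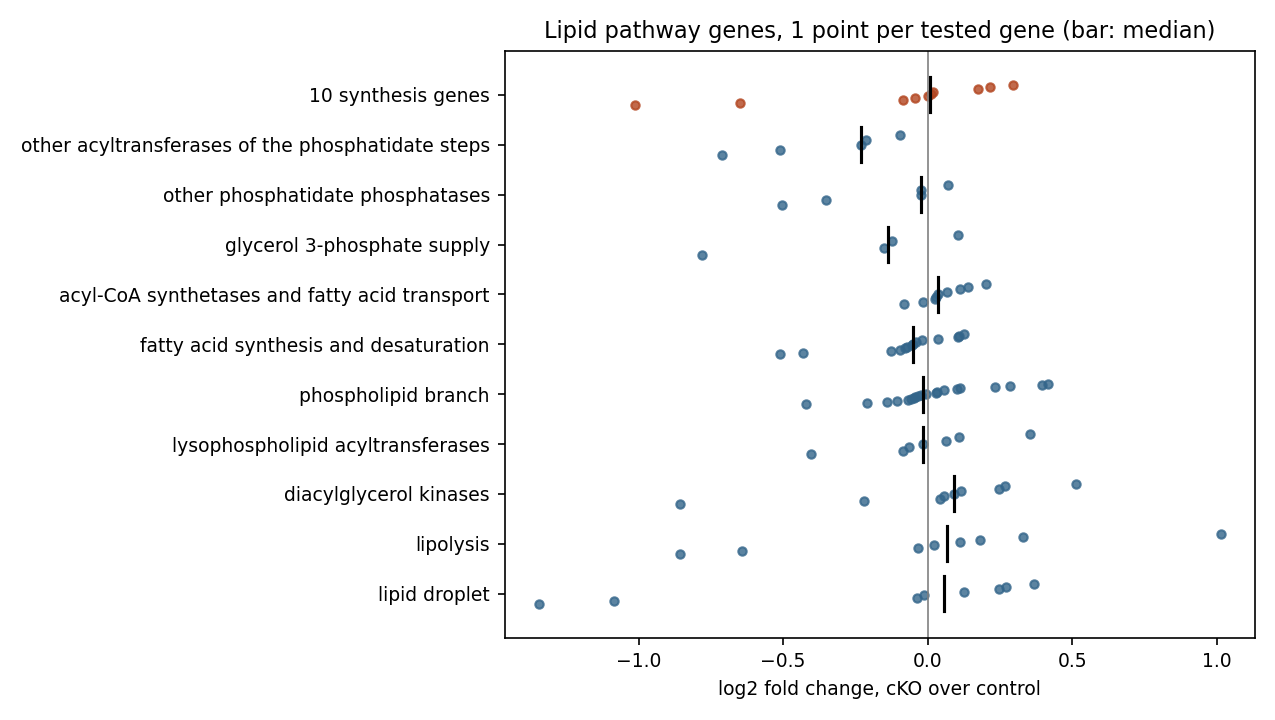
Log2 fold change, cKO over control (horizontal axis), of each tested gene in the 10 synthesis genes and in the 10 lists of neighbouring lipid genes with more than 1 tested gene, with a bar at each median. Medians of the lists lie between -0.23 and 0.090, and Gpat3 and Dgat2 lie far left of the other synthesis genes.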

How the data were processed

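Whole-tissue RNA from 6 mice was compared between cKO and control. Per the submitters' processing notes, reads were handled with STAR 2.6.1d and Partek on build mm10; the sources used here give no parameters, annotation or strand setting. The authors deposited estimated counts for 25700 genes, which were rounded to whole numbers for the tests and left unrounded for the levels in CPM, and a normalized signal for 20676 genes. By comparison with the counts, that deposited signal is the count plus 1 times 1 factor per library (100% of values within 0.1%), and no test used it. The 6 libraries held 53525185 to 66694240 counts.

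Low genes were removed by filterByExpr, with a minimum count of 10 and a minimum total of 15, and libraries were scaled by TMM. Tests were edgeR 4.0.16's quasi-likelihood F-test in R 4.3.3, two-sided, without covariates, with Benjamini-Hochberg adjustment over 19264 genes and a threshold of 0.05. DESeq2 1.42.0, other scalings and filters, late enamel markers as a covariate and leaving out each library were alternatives. The fit was also run on simulated counts for this comparison as a check of the code, and no result given here rests on it. Replicates are separate mice numbered in accession order, and no pair of libraries repeated 1 sample (chi-square per degree of freedom 50.9 to 80.9 within groups). Exon lengths and overlaps came from GENCODE M21, and promoter sequences from RefSeq.

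The 10 members and all gene lists were chosen with earlier results of these data known. Named genes were the 10 members, Runx2, genes sharing exonic bases with a member, from each list the genes past the threshold (where none was, its 2 genes of lowest p), and the 5 genes nearest to Gpat3 in profile. The other genes named, Xist, Adipoq, Plin1 and Fasn among them, were chosen after their values were seen.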

Additional observations from a re-analysis of the deposited data

How the results depend on the processing

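Over 12 alternatives the log2 fold changes of Gpat3, Gpat4, Gpam, Lpin1, Dgat1 and Dgat2 kept their sign. Those of Agpat1, Agpat2, Agpat3 and Agpat4 turned to -0.0030, -0.023, -0.060 and -0.018 when late enamel markers entered the fit. With 1 library left out, Agpat1 ran from -0.042 to 0.044, Agpat2 from -0.011 to 0.057, Agpat3 from -0.020 to 0.056 and the scarce Mogat2 from -0.98 to 0.19. The number of the 10 genes past the threshold was 0 with edgeR, 2 with DESeq2 (Gpat3 and Dgat2) and 0 to 1 with 1 library left out, the 1 being Gpat3 without control 2. For the 90 genes of the pathway lists it was 0 with edgeR, including each fit without a library, and 5 with DESeq2. Over all genes it was 5 with edgeR, 1327 with DESeq2, 0 when late enamel markers entered the fit (1384 at an unadjusted p under 0.05) and 0 to 72 with 1 library left out, 72 without control 2 and 0 without control 1, cKO 1 or cKO 2. The causes were not tested. The share of Gpat3 among the GPAT genes moved by less than 1 SD under each alternative length and without each library. No paired analysis was possible because the labels give each mouse a number of its own. With 3 mice a group, differences of the size seen in Lpin1 lie close to the spread between mice, while counting error was at most 5.44% for each of the 10 genes.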
